A study of Homo sapiens with 6 samples.

Results

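The shelterin and CST complexes are represented by 9 genes of the 60664 in the count table, chosen by name: TERF1, TERF2, TERF2IP, TINF2, POT1 and ACD for shelterin and CTC1, STN1 and TEN1 for CST. Their transcripts were measured in U-2 OS cells, a human osteosarcoma line that maintains its telomeres by the recombination-based pathway called alternative lengthening of telomeres (ALT). The cells were transiently transfected at 30 nM with a non-targeting siRNA (siControl) or with siRNA against SFPQ (siSFPQ), an RNA- and DNA-binding protein of nuclear paraspeckles that acts in splicing and transcription. Each group holds 3 libraries, which the study's methods call biological replicates, and every library comes from the same cell line. The comparison asks whether the transcripts of the proteins that cap telomeres differed once SFPQ was depleted.

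Shelterin coats the TTAGGG repeats of chromosome ends. TRF1 (gene TERF1) and TRF2 (TERF2) bind the duplex repeats, RAP1 (TERF2IP) sits on TRF2, and TIN2 (TINF2) bridges TRF1 and TRF2 to TPP1 (ACD), which in turn holds POT1 on the protruding G-rich strand. CST, made of CTC1, STN1 and TEN1, binds the same strand and brings in DNA polymerase alpha-primase to fill in the complementary C-rich strand. In ALT cells telomerase is usually silent, so these complexes act on telomeres that are copied by recombination.

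Total counts per library lay between 43469321 and 47119203. SFPQ itself had 21753 to 23139 counts in siControl and 3140 to 3863 in siSFPQ (log2 fold change -2.73, adjusted p = 6.34e-30, edgeR's quasi-likelihood test). Of 29022 genes tested, 6514 (22.4%) were higher and 6421 (22.1%) lower in siSFPQ at an adjusted p under 0.05, or 8118 higher and 5155 lower with upper-quartile scaling. Of the markers of osteosarcoma cells, RUNX2, COL1A1, SPARC and VIM were at 56.4 CPM (counts scaled to the library total) or more in both groups. Among them COL1A1 (log2 fold change -0.35) and SPARC (-0.17) fell, VIM (0.32) rose and RUNX2 did not pass the test. ALPL averaged 3.45 CPM in siControl and 3.4 CPM in siSFPQ, and COL1A2 0.813 and 1.11 CPM, while SP7 had at most 5 counts. The telomerase catalytic gene TERT had 1, 4 and 0 counts in siControl and 0 in every siSFPQ library. The telomerase RNA gene TERC had 0 counts in all libraries, which were made from polyadenylated RNA. Another entry of the count table, named Telomerase-vert, covers 81% of TERC on the same strand. Its counts are not given here, and its part in the missing counts of TERC was not tested. Of the 4 epithelial markers, 3 rose, and their summed level went from between 319 and 334 CPM to between 747 and 811 CPM, mostly from KRT8 and KRT18. The 4 haematopoietic markers summed to under 1 CPM in every library, and of these PTPRC fell (log2 fold change -1.61, adjusted p = 0.00147, edgeR). The 3 endothelial markers summed to 4.2 to 5.33 CPM in siControl and 6.65 to 7.48 CPM in siSFPQ. Of these VWF rose (log2 fold change 0.53, adjusted p = 0.00115, edgeR). CDH5 rose too (1.39, adjusted p = 0.00380), but on only 10 to 15 counts per library in siControl and 23 to 42 in siSFPQ. The part of these genes in the results on shelterin and CST was not tested, and in bulk RNA fewer cells of a type and less RNA per cell cannot be told apart.

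POT1 fell, and ACD, whose product TPP1 carries POT1 onto telomeres, rose. CTC1, the largest CST subunit, rose too, and TINF2 fell by a smaller step. TERF1 and TERF2, which bind duplex telomeric DNA, did not pass the test. At an adjusted p under 0.05, 4 of the 9 genes rose and 2 fell, where 44.6% of all genes tested were called in either direction. All but TEN1, 8 of the 9 genes, averaged at least 10 CPM. Among the 10218 genes at that level 70.2% were called, so 6 of 8 lies near the background. With a log2 fold change past 1.5 also required, 0 of the 9 were called, against 10.3% of all genes tested (5.54% upward and 4.77% downward). That share is not matched for level: the median absolute change was 0.428 over all genes tested and 0.221 over those of at least 10 CPM. The median log2 fold change of the 9 was 0.080, against 0.019 over all genes tested. In 6 of the 9 the normalized counts of the groups did not overlap, as in 52.3% of all genes tested. Of these 4 were higher in siSFPQ (26.9% of all genes tested) and 2 lower (25.4%). The absolute change of 3 of them (POT1, ACD and CTC1) was above 0.221, the median over the genes of at least 10 CPM.

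**Figure D1:**
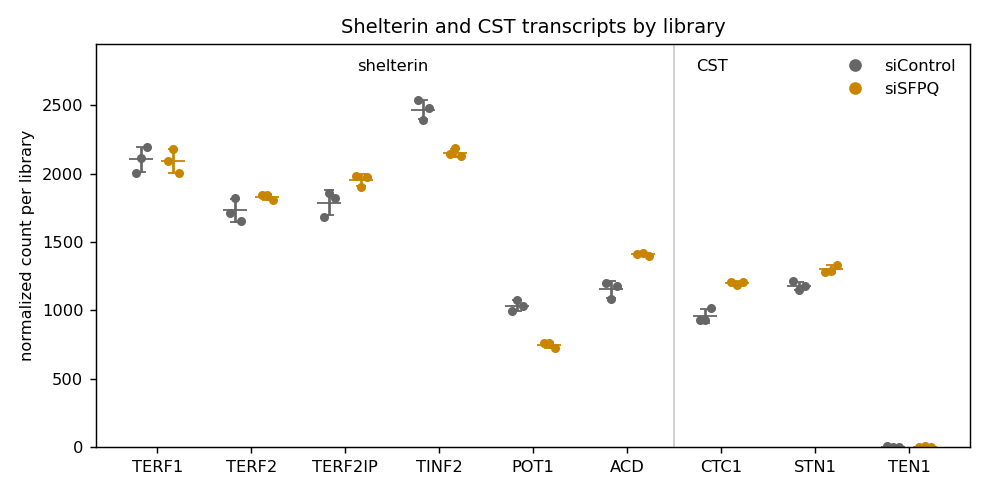
Normalized counts of the 9 genes in each library; points are libraries, horizontal ticks group means and whiskers 1 SD (n = 3). POT1 and TINF2 sit lower in every siSFPQ library, ACD, CTC1, TERF2IP and STN1 sit higher, TERF1 and TERF2 overlap, and TEN1 lies near 0.

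POT1 (ENSG00000128513; GRCh38 chromosome 7, 124822386 to 124929983, minus strand, 19 exons in its canonical transcript) recognises single-stranded telomeric DNA and keeps ATR signalling off chromosome ends. Its normalized counts, that is counts brought to a common depth with edgeR's TMM factors, were 995, 1076 and 1032 in siControl and 759, 764 and 721 in siSFPQ. The lowest control library stood well above the highest siSFPQ library. The mean went from 1034 ± 40.6 to 748 ± 23.6 (SD, n = 3 each), and the log2 fold change was -0.47 (standard error 0.066, 95% interval -0.60 to -0.33, adjusted p = 3.29e-07 by edgeR's quasi-likelihood test). Its absolute change was larger than that of 77.2% of the genes of at least 10 CPM. POT1-AS1, a lncRNA on the opposite strand that covers 1.27% of the POT1 exons, had 50 to 69 counts in siControl and 43 to 49 in siSFPQ, and did not pass the test (log2 fold change -0.39, adjusted p = 0.178).

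ACD (ENSG00000102977; chromosome 16, 67657512 to 67660810, minus strand, 12 exons) encodes TPP1, the partner that recruits POT1 and, in telomerase-positive cells, telomerase. Its normalized counts were 1197, 1085 and 1177 in siControl and 1411, 1422 and 1397 in siSFPQ. All siSFPQ libraries lay above all controls and close to each other. The mean rose from 1153 ± 59.9 to 1410 ± 12.6 (SD, n = 3 each), or by 0.29 on the log2 scale (standard error 0.057, 95% interval 0.17 to 0.41, adjusted p = 6.92e-05). The neighbour CARMIL2, on the opposite strand, shares 1.8% of the ACD exons and rose from 188 to 209 counts in siControl to 377 to 445 in siSFPQ. The strand setting of the counting is not given in the sources used here.

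RefSeq promoter windows (GRCh38.p14, 250 bases before to 50 after the start) were examined for 5 of the 9 genes: TERF2IP, TINF2, POT1, ACD and STN1. The other 4 genes were left out, so the matches below describe these 5 only. The letters GGGCGG, the core of the GC box, were found on either strand in all 5, against 45.0% of the 35116 windows in the table. The letters CCGGAA, the core that ETS factors read, were found in all of these except ACD (17.2% of windows), CCAAT in TINF2 alone (34.6%), and the palindrome read by NRF1 in none of them (1.24%). Both strands were searched, and a match describes letters only. The windows of these genes held 60.3% to 74.7% G or C, against a median of 58.7% over all windows. GGGCGG was at 1 place in TERF2IP, 2 in TINF2 and 6 in STN1. POT1 and ACD, the partners whose ratio differed most between the groups, each held it at 2 places. The 30 bases around 1 of these places are shown for each, with GGGCGG in capitals, read on the minus strand at chr7:124930014-124930043 for POT1 and at chr16:67660323-67660352 for ACD. Between the capitals and the RefSeq start lie 200 bases in POT1 and 74 in ACD.
POT1: tgtgaccggactGGGCGGggcctgtacctt
ACD: cggggtgtacgtGGGCGGggcctcctcctc
The ACD stretch lies before the RefSeq start but within the GENCODE extent of ACD given above, whereas the POT1 stretch lies outside that of POT1.

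TINF2 (ENSG00000092330; chromosome 14, 24238286 to 24242663, minus strand, 9 exons) encodes TIN2, the hub to which TRF1, TRF2 and TPP1 attach. It had 2537, 2394 and 2479 normalized counts in siControl and 2144, 2188 and 2129 in siSFPQ. The groups were apart, with a mean of 2470 ± 71.8 against 2154 ± 30.8 (SD, n = 3 each). The change was -0.20 on the log2 scale (standard error 0.046, 95% interval -0.29 to -0.10, adjusted p = 0.000536), and -0.11 with upper-quartile scaling, where the call was lost (adjusted p = 0.0528, edgeR). GMPR2, on the opposite strand, overlaps 21.9% of the TINF2 exons and had 2425 to 2555 counts in siControl and 2390 to 2620 in siSFPQ.

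The duplex-binding subunits differed little. TERF1 (ENSG00000147601; chromosome 8, 73008856 to 73048123, plus strand, 10 exons), which keeps replication forks moving through telomeres, had 2008, 2112 and 2194 normalized counts in siControl and 2092, 2178 and 2002 in siSFPQ. The libraries of the groups were interleaved. Its log2 fold change was -0.0095 (95% interval -0.11 to 0.091, adjusted p = 0.904), and its sign flipped under 2 other scalings (0.054 with library size alone, 0.082 with upper-quartile scaling), without a call in either.

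TERF2 (ENSG00000132604; chromosome 16, 69355567 to 69408571, minus strand, 10 exons) prevents end-to-end fusions and forms the protective t-loop. Its normalized counts were 1713, 1825 and 1656 in siControl and 1841, 1844 and 1805 in siSFPQ, so that 1 control library fell inside the siSFPQ range. The log2 fold change was 0.080 (95% interval -0.024 to 0.18, adjusted p = 0.217). It passed the test with library size alone (0.14, adjusted p = 0.0188) and with upper-quartile scaling (0.17, adjusted p = 0.00563, edgeR).

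TERF2IP (ENSG00000166848; chromosome 16, 75647773 to 75761872, plus strand, 3 exons) encodes RAP1, which rides on TRF2 and helps to repress recombination at telomeres. It had 1685, 1861 and 1822 normalized counts in siControl and 1980, 1906 and 1975 in siSFPQ. The highest control lay just below the lowest siSFPQ library, and the log2 fold change was 0.13 (standard error 0.051, 95% interval 0.024 to 0.23, adjusted p = 0.0405). The call was lost without siControl replicate 1, where the log2 fold change was 0.085 (adjusted p = 0.182, edgeR). It was also lost, with the log2 fold change at 0.13 as before, with DESeq2 (adjusted p = 0.0618) and without siSFPQ replicates 1, 2 or 3 (adjusted p = 0.0760, 0.0625 and 0.0743). KARS1, on the opposite strand, overlaps 3.98% of the TERF2IP exons. It had 11689 to 11709 counts in siControl and 12008 to 13209 in siSFPQ (log2 fold change 0.10, adjusted p = 0.0226, edgeR). Its part in the TERF2IP counts was not tested.

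Within CST, CTC1 (ENSG00000178971; chromosome 17, 8224815 to 8248058, minus strand, 23 exons), the scaffold subunit, had 931, 930 and 1015 normalized counts in siControl. The siSFPQ libraries had 1205, 1187 and 1208, all above the controls. The mean rose from 958 ± 48.7 to 1200 ± 11.4 (SD, n = 3 each), or by 0.32 on the log2 scale (standard error 0.061, 95% interval 0.20 to 0.45, adjusted p = 3.57e-05, edgeR), the highest log2 fold change of the 9 genes.

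STN1 (ENSG00000107960; chromosome 10, 103856806 to 103918332, minus strand, 10 exons) contacts polymerase alpha and stimulates its priming. Its normalized counts were 1212, 1151 and 1177 in siControl and 1283, 1291 and 1335 in siSFPQ. The groups did not overlap, and the log2 fold change was 0.14 (standard error 0.056, 95% interval 0.028 to 0.26, adjusted p = 0.0380). This call too was lost with DESeq2 (adjusted p = 0.0645), and without siControl replicate 2 (0.112) or 3 (0.0698) or siSFPQ replicate 2 (0.0976) or 3 (0.106), while the log2 fold change stayed between 0.12 and 0.17 with any library left out.

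TEN1 (ENSG00000257949; chromosome 17, 75979240 to 76000586, plus strand), the smallest CST subunit, could not be assessed. It had 4, 0 and 2 counts in siControl and 0, 5 and 1 in siSFPQ, 12 in all, and its 95% interval ran from -2.62 to 2.59 on the log2 scale. The annotated readthrough gene TEN1-CDK3 runs over it on the same strand and contains 100% of the bases of the canonical TEN1 transcript. STAR's gene counting leaves out reads that overlap more than 1 gene, and TEN1-CDK3 itself had 24 to 35 counts per library. The part of this overlap in the low count was not tested. Among the other 8 genes, the largest same-strand overlap of the canonical transcript was 3.27%, in TERF2, with a gene that had 0 counts in every library. Over merged exons it was 17.9%, in STN1, with the lncRNA ENSG00000289744, which is not among the genes of the count table.

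**Figure D2:**
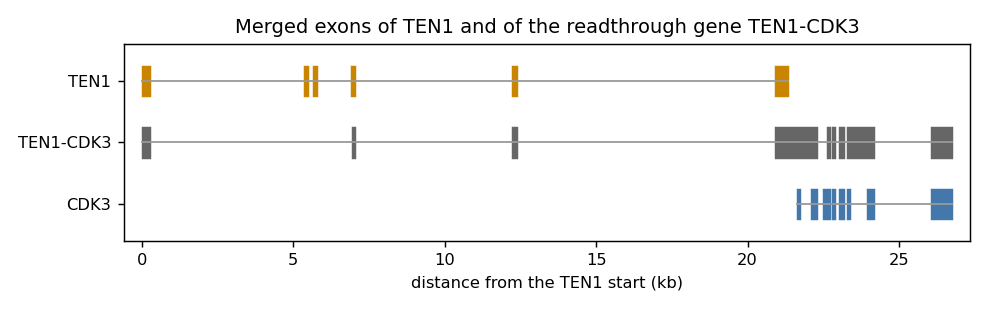
Merged exons (boxes) of TEN1, of the readthrough gene TEN1-CDK3 and of CDK3, against the distance from the TEN1 start in kb. Each exon of the canonical TEN1 transcript lies within an exon of TEN1-CDK3, and 75.9% of all TEN1 exon bases do.

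To see whether direct partners changed unequally, the log2 ratio of their counts was taken within each library, which does not depend on library scaling. Of 8 pairs set by known contacts or paralogy, 7 could be computed. TEN1 to STN1 could not, because TEN1 had libraries at 0. With 3 libraries against 3, the exact permutation test (two-sided) cannot give a p under 0.1, and 0.14 was the smallest value after Benjamini-Hochberg adjustment over the 7 pairs.

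The POT1 to ACD ratio differed most. It was -0.27, -0.012 and -0.19 in siControl and -0.89, -0.90 and -0.95 in siSFPQ, a difference of -0.76 on the log2 scale with no overlap (0.591-fold, pooled SD 0.096, exact p = 0.1). Such a ratio is read between groups only, since the genes differ in length.

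The ACD to TINF2 ratio was higher in siSFPQ, by 0.49 (from -1.10 ± 0.037 to -0.61 ± 0.0095, SD, n = 3 each). Relative to the duplex binders, TINF2 differed by -0.19 on the log2 scale against TERF1 and by -0.28 against TERF2. CTC1 relative to STN1 was 0.18 higher. These 4 pairs also did not overlap between the groups, each with an exact permutation p of 0.1. How often the ratios of other gene pairs separate was not computed. Taken singly, 52.3% of all genes tested did not overlap, so such separation is not particular to these partners.

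The remaining pairs overlapped. TERF1 to TERF2 differed by -0.090 (exact p = 0.3) and TERF2IP to TERF2 by 0.047 (exact p = 0.5), against pooled SDs of 0.083 and 0.065.

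**Figure D3:**
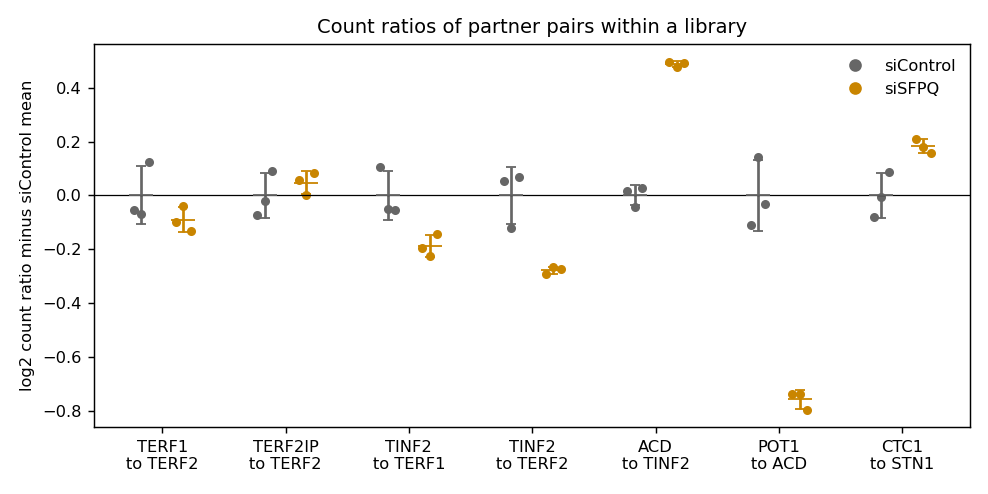
Log2 count ratio of each partner pair minus its siControl mean; points are libraries, ticks group means and whiskers 1 SD (n = 3). The siSFPQ points of POT1 to ACD lie about 0.76 below the control mean and those of ACD to TINF2 about 0.49 above it, while the TERF1 to TERF2 and TERF2IP to TERF2 pairs overlap.

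Levels can be compared between genes only per length. Counts were therefore divided by the merged exon length and scaled to TPM, so that all annotated genes sum to the same total in every library. On this scale TINF2 was the most abundant of the 9 in siControl, at 48.6 ± 1.39 (SD, n = 3), and stayed first in siSFPQ at 41.7 ± 1.24. TERF2IP followed at 34.9 ± 1.78 in siControl and ACD at 30.9 ± 1.48. Their libraries did not overlap, at 33.0 to 36.5 against 29.3 to 32.2, but in siSFPQ the gap narrowed to 37.2 to 37.9 for TERF2IP against 36.5 to 38.1 for ACD, which overlap. TERF2 was next, at 26.5 ± 1.55 in siControl and 27.5 ± 0.595 in siSFPQ.

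Below these lay TERF1 at 11.5 ± 0.428 and POT1 at 10.2 ± 0.438 in siControl. In siSFPQ, TERF1 kept 11.3 ± 0.597 while POT1 was at 7.27 ± 0.272, below CTC1 at 9.16 ± 0.116 and overlapping STN1 (7.32 to 7.77, against 7.02 to 7.56 for POT1). In siControl CTC1 (7.44 ± 0.298) and STN1 (6.98 ± 0.193) were both under POT1, and no library of any of the 3 overlapped another's. POT1 therefore went from the sixth to the eighth place of the 9 genes.

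As a share of the summed shelterin level, POT1 went from 6.29% ± 0.24 to 4.48% ± 0.10 and TINF2 from 29.9% ± 0.93 to 25.7% ± 0.24, while ACD went from 19.0% ± 1.0 to 22.9% ± 0.069 (SD, n = 3 each). The shares add to a fixed total, so they do not move independently.

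The choice of length changed the order. With the canonical transcript in place of merged exons, TERF1, whose merged exons (15706 bases) are much longer than its canonical transcript (3329 bases), was at 32.4 ± 1.13 in siControl, with libraries that overlapped those of TERF2 at 29.7 ± 1.70. CTC1 was then below STN1, at 6.98 ± 0.277 against 9.50 ± 0.291 in siControl. POT1 then went from 13.5 ± 0.541 to 9.79 ± 0.399, from the sixth to the seventh place, and remained the lowest shelterin gene in both groups. These levels are of transcripts at gene level, and no isoform was resolved.

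**Figure D4:**
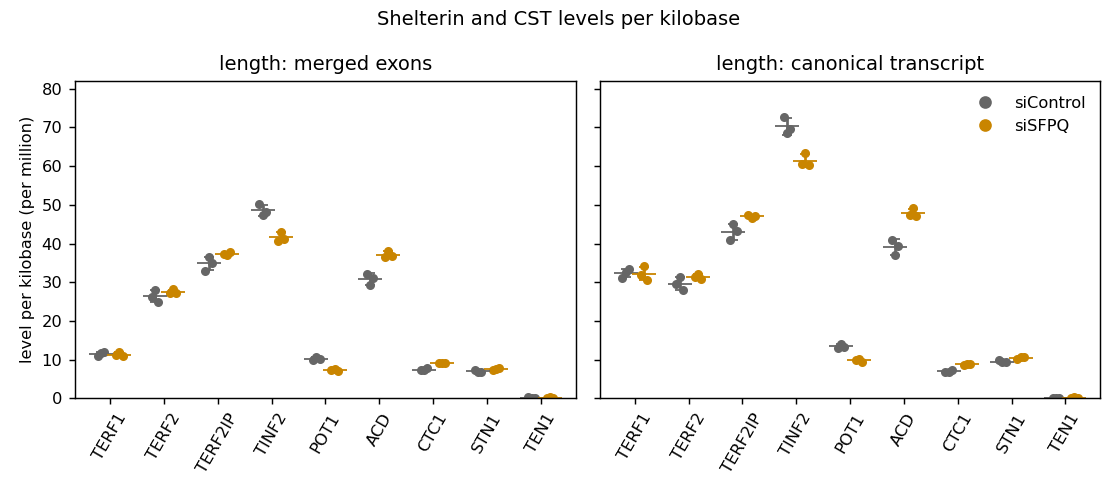
Level per kilobase on the TPM scale, with the merged exon length (left) or the canonical transcript length (right); points are libraries, ticks group means and whiskers 1 SD (n = 3). TINF2 is highest with either length, and TERF1 moves from 11.5 to 32.4 in siControl between the lengths.

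The genes whose profile was nearest to that of POT1 were sought among 15640 genes of at least 1 CPM, by the Euclidean distance of log2 CPM from its mean over the 6 libraries. They were ATXN10 (distance 0.0386), LINC00667 (0.0522), SH3PXD2A (0.0546), OGFOD3 (0.0585) and ELF1 (0.0589). The length of the POT1 profile itself was 0.58. Their log2 fold changes lay between -0.50 and -0.45. The points share the libraries and their scaling, and the likeness mostly describes a fall of the same size.

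Beyond the 9 genes, the enzyme that CST brings to telomeres had the largest median change of the 4 lists examined. DNA polymerase alpha-primase, which starts every lagging-strand fragment and fills in the telomeric C-rich strand, had 4 of 4 subunit transcripts lower in siSFPQ, where 22.1% of all genes tested were, and their median change was -0.82 on the log2 scale. In either direction, 44.6% of all genes tested were called and 70.2% of those of at least 10 CPM. Under upper-quartile scaling 3 of 4 passed the test, as PRIM1 lost its call (-0.12, adjusted p = 0.0637, edgeR). POLA1, the catalytic polymerase subunit, had 2673, 2574 and 2631 normalized counts in siControl and 711, 767 and 709 in siSFPQ, with a wide gap between the groups. It fell by 1.85 on the log2 scale (standard error 0.054, adjusted p = 2.45e-24, edgeR). PRIM2, the large primase subunit, fell by 1.07 on the log2 scale, from 3750 ± 123 to 1780 ± 129 normalized counts (SD, n = 3 each). POLA2 (log2 fold change -0.57, adjusted p = 4.72e-05) and PRIM1 (-0.21, adjusted p = 0.00147) fell less. Other genes on the same strand cover 55.8% of the canonical POLA2 transcript and 28.9% of that of PRIM1, and none of POLA1 or PRIM2.

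Of the 8 telomerase genes 6 had enough counts to test, of which 2 rose and 0 fell (median log2 fold change 0.070), against 44.6% of all genes tested and 70.2% of those of at least 10 CPM called in either direction. GAR1, a protein of the telomerase and H/ACA snoRNA particles, rose by 0.25 on the log2 scale (adjusted p = 0.000391), and DKC1, the pseudouridine synthase of the same particles, by 0.13 (adjusted p = 0.00360). NOP10, NHP2, WRAP53 and NAF1 did not pass the test (log2 fold changes -0.14 to 0.12), and TERT and TERC were at or near 0.

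Among 15 partners and regulators of shelterin, 1 rose and 3 fell by edgeR's test, and the median log2 fold change was -0.067. These 4 of 15 stand beside 44.6% called among all genes tested and 70.2% among those of at least 10 CPM. TNKS, the tankyrase that releases TRF1 from telomeres, had the largest fall among them, with 3259 to 3639 counts in siControl and 2631 to 2806 in siSFPQ (log2 fold change -0.32, adjusted p = 4.47e-07). SLX4, a nuclease scaffold that TRF2 brings to telomeres, fell by 0.22, and MRE11, the nuclease of the MRN complex, by 0.19 (-0.14, adjusted p = 0.0527, without siSFPQ replicate 3). The MRE11 groups overlapped, with 2185 normalized counts in siControl replicate 1 and 2197 in siSFPQ replicate 2. ERCC1, a subunit of the flap endonuclease that TRF2 binds, rose by 0.22 (adjusted p = 3.50e-05). The other 11 did not pass, among them TNKS2, DCLRE1B, NBN, WRN and BLM. RTEL1 and RAD50 had only 34 to 49 and 104 to 147 counts per library, and other genes on the same strand cover 95.2% and 91% of their canonical transcripts.

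Proteins outside shelterin that bind telomeric or variant repeats include HMBOX1, ZBTB48, ZBTB10, NR2C1 and NR2C2, the last 2 being orphan nuclear receptors that occupy variant repeats in ALT cells. Of these 5 genes 3 rose and 1 fell, with a median log2 fold change of 0.25, and HMBOX1 did not pass the test. The background for such calls was again 44.6% of all genes tested and 70.2% of those of at least 10 CPM. The receptors went in opposite directions. NR2C1 had 1000 to 1102 counts in siControl and 1303 to 1354 in siSFPQ (log2 fold change 0.31, adjusted p = 3.98e-05), and NR2C2 had 4638 to 5032 and 3711 to 3929 (-0.34, adjusted p = 3.07e-08, edgeR). Exons of genes on either strand overlap 61.9% of the NR2C2 exons, and none of those of NR2C1. ZBTB48, known as TZAP, a zinc finger protein that trims long telomeres, rose by 0.40 (adjusted p = 0.000557), and ZBTB10 rose by 0.25.

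**Figure D5:**
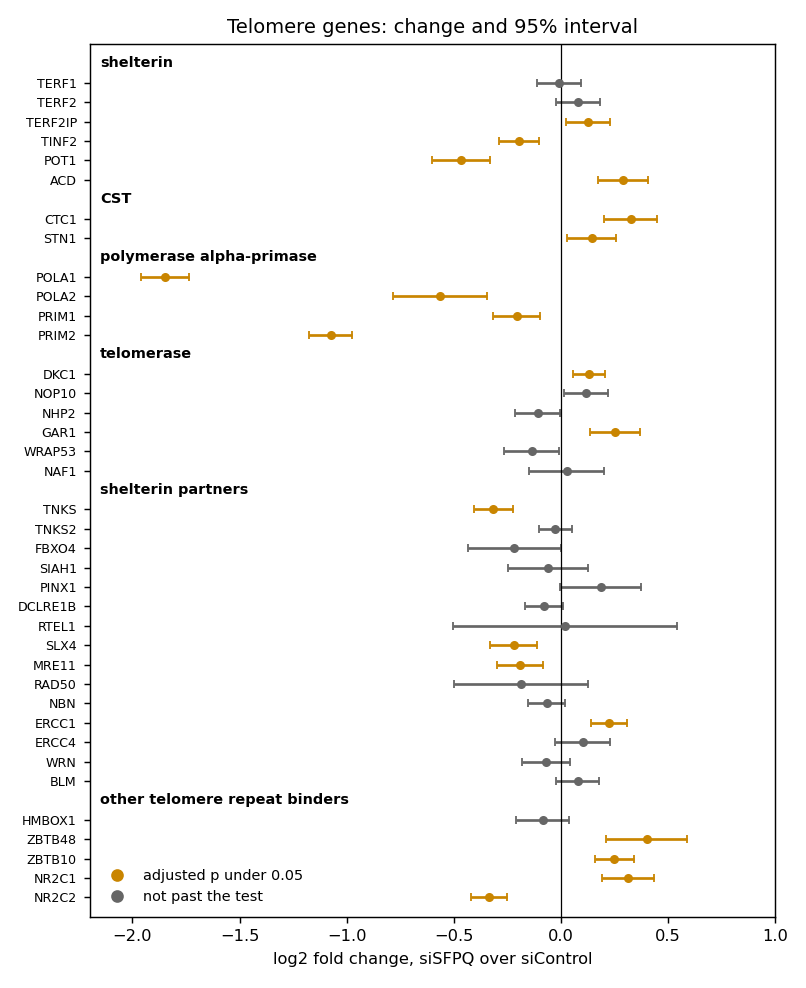
Log2 fold change (siSFPQ over siControl) with its 95% interval for the tested genes of shelterin, CST and the 4 telomere lists; orange, adjusted p under 0.05, grey, not past the test. TEN1, whose interval runs from -2.62 to 2.59, is left out. POLA1 and PRIM2 stand far to the left, at -1.85 and -1.07, and POT1 is the lowest shelterin gene at -0.47.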

How the data were processed

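RNA of 3 siControl and 3 siSFPQ U-2 OS libraries was sequenced paired-end from poly(A) libraries. The authors aligned reads with STAR 2.7.9a to Ensembl GRCh38 and deposited raw counts per gene, without normalization; the strand setting is not given in the sources used here. Groups and replicate numbers came from the sample titles, and 0 columns were left unused.

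Genes with at least 10 counts in total (29022) entered the quasi-likelihood test of edgeR 4.0.16 under R 4.3.3 (TMM scaling, no covariates, Benjamini-Hochberg over all of them), standard errors being derived from the test statistic. The 9 genes, the telomere lists, the pairs and the naming rule (all members; the 2 largest rises and falls per list; TERT and TERC; the 5 profiles nearest the most changed member) were chosen with earlier results of these data known. Other list members and the genes of overlapping loci were named after their values were seen. Names and exons came from GENCODE release 44, which holds 60463 of the 60664 identifiers. At these depths 3 counts equal 0.0637 to 0.069 CPM, and intervals cover the spread between these libraries. Chi-square over degrees of freedom between replicates was 3.77 to 5.49, above sampling noise, so each library was counted once. Alternatives were other filters, scalings, DESeq2 1.42.0, a replicate block, protein-coding genes only, other lengths, and each library left out. The tests were run on simulated data first.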

Additional observations from a re-analysis of the deposited data

How the results depend on the processing

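The calls of POT1, ACD and CTC1 held under each of 14 alternatives, with log2 fold changes of -0.50 to -0.38, 0.25 to 0.38 and 0.30 to 0.41. The cause was not tested where a value moved. With no count filter, 2 members rose, since TERF2IP (0.12) and STN1 (0.13) lost their calls, and with DESeq2 also 2, with TERF2IP at 0.13 and STN1 at 0.14. With any library left out, 2 to 3 members rose (2 without siSFPQ replicate 2 or 3), TERF2IP lying between 0.085 and 0.16 and STN1 between 0.12 and 0.17. Upper-quartile scaling, which put the median of all genes at 0.11 in place of 0.019, left 1 member fallen (TINF2 at -0.11 lost its call) and moved TERF2 to 0.17. TERF2 was at 0.14 with library size alone, and passed the test in both. With a log2 fold change past 0.58 or 1.5 required as well, 0 members rose and 0 fell. The sign of TERF1 turned with library size alone (0.054), upper-quartile scaling (0.082) and protein-coding genes only (0.0014), and without siControl replicate 3 or siSFPQ replicate 1 or 3, over a range of -0.055 to 0.031 with a library left out. That of TEN1 turned with library size alone (0.042) and upper-quartile scaling (0.067), and ranged from -0.57 to 0.54 with a library left out, where it had enough counts to be tested. Of the shelterin partners, 4 rose with library size alone and 4 rose and 1 fell with upper-quartile scaling, where SLX4 (-0.13) and MRE11 (-0.10) lost their calls. In place of 0, up to 2 telomerase genes fell with a library left out (2 without siControl replicate 1, 1 without siSFPQ replicate 2).

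Same-numbered libraries did not deviate together (correlations -0.0251, 0.0697 and 0.0355 over 15641 genes), so the numbers were not taken as pairs. With the replicate number as a block, 4 members rose and 2 fell, and no call of a member changed. The count ratios of the 7 pairs kept their sign in all 49 alternatives, which were each library left out and log2 CPM with a prior count of 2. For the 5 pairs without overlap, leaving out a library could not turn the sign, so this is no test of them. Counts were too low to read a change in TEN1, TERT, TERC and SP7, and low in RTEL1, POT1-AS1, CDH5 and PTPRC. No design of 3 against 3 libraries can give an exact permutation p under 0.1.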
